A study of Homo sapiens with 12 samples.

Results

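Genes that write, erase and read marks on chromatin, or move nucleosomes, were examined in human liver cancer xenografts. The xenografts came from a group given bufotalin, a cardioactive steroid of toad venom, and from a control group. Members were the genes of the authors' mRNA table whose symbols begin with KDM, KMT, SETD, HDAC, CHD, SMARC, ARID, BRD, PHF, KAT, SIRT, CBX, DNMT, TET or ING (for all but SETD, SMARC and DNMT, with a digit after the prefix). They came to 48 of the 4988 genes in that table. By the same rule 148 protein-coding symbols exist in RefSeq, so 32.4% of them were in the table, against 23.6% of all RefSeq protein-coding symbols.

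Both groups were labelled as xenograft tissue of Hep3B, an established hepatocellular carcinoma cell line, while the title speaks of cells of that line. Each group had 3 total RNA libraries. The sources used here do not give the dose and length of treatment, what controls received or the host animal. Nothing in the labels says that replicates came from separate animals, so each p-value reflects the scatter of these libraries alone, and that scatter may be technical.

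Chromatin enzymes place and remove small chemical groups on histone tails and on DNA. Writers such as the KMT and SETD lysine methyltransferases, the KAT acetyltransferases and the DNMT enzymes add them, and erasers such as the KDM demethylases, the HDAC and SIRT deacetylases and the TET dioxygenases take them off or convert them. Readers with bromodomains, chromodomains or PHD fingers bind the marks, and CHD and SWI/SNF remodellers use ATP to shift nucleosomes. In hepatocellular carcinoma several of these genes, ARID2 among them, are known targets of mutation.

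Values are FPKM per gene as deposited, and the table held genes that the authors list as different on these same samples. Read depth was unknown. The table's values added up to 114207 to 121337 FPKM per bufotalin library and 102677 to 105803 FPKM per control library, and members took 0.524% to 0.627% of the sum in bufotalin libraries and 0.588% to 0.626% in control libraries. Fold changes are bufotalin over control on the log2(FPKM + 1) scale, which understates changes of low genes. A gene was called when limma's Benjamini-Hochberg adjusted p, over all tested genes, was under 0.05. Errors after ± are SD over 3 libraries, and library values are given in the order of replicates 1, 2 and 3.

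Bufotalin libraries differed from controls at nearly all of these genes, but in both directions. The same held for the whole table, whose genes the authors list as different on these same samples. Most histone methyltransferases of the KMT and SETD classes found in the table, the TET3 dioxygenase and the readers ING3 and ING4 were higher. The 3 SMARC genes in the table, HDAC6, HDAC11, DNMT3L and SIRT5 were lower. HDAC11 and DNMT3L averaged 0.314 and 0.204 FPKM with bufotalin, so they passed the minimum mean of 0.5 FPKM only through control libraries. DNMT3A and SIRT3 were also lower, but their calls were lost under quantile normalization, which gives each library the same distribution of values. On the log2(FPKM + 1) scale the largest fall was that of CBX5, which encodes the heterochromatin protein HP1α, and the largest rise was that of TET3. That order depends on the scale. The ratio of mean FPKM, control over bufotalin, was 7.92 for DNMT3L, 5.93 for HDAC11 and 3.89 for CBX5. Bufotalin over control, it was 2.62 for ING3 and 2.51 for TET3. Of 47 members with a mean of at least 0.5 FPKM, 41 (87.2%) were called, and 93.2% of all tested genes were. Called higher were 22 members (46.8%, against 44.3% of all tested genes), and called lower were 19 (40.4%, against 48.8%). These shares lay near those of the whole table. In bulk samples, fewer cells of a type and less RNA per cell cannot be told apart.

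Falls were larger than rises. On the log2(FPKM + 1) scale, TET3, ING3 and PHF5A alone were called and at least 2-fold higher (6.38% of tested members, against 7.14% of all tested genes). By contrast, 13 members were called and at least 2-fold lower (27.7%, against 25.9%). The median log2 fold change was 0.57 over members called higher and -1.11 over members called lower, and over all tested genes these medians were 0.61 and -1.02. Over all 47 tested members it was 0.30, and over all tested genes 0.13. The groups did not overlap at 42 members (89.4%, against 92.5% of all tested genes). The summed level of the members did not separate the groups, at 636, 704 and 716 FPKM in bufotalin libraries and 627, 622 and 642 FPKM in control libraries.

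**Figure D1:**
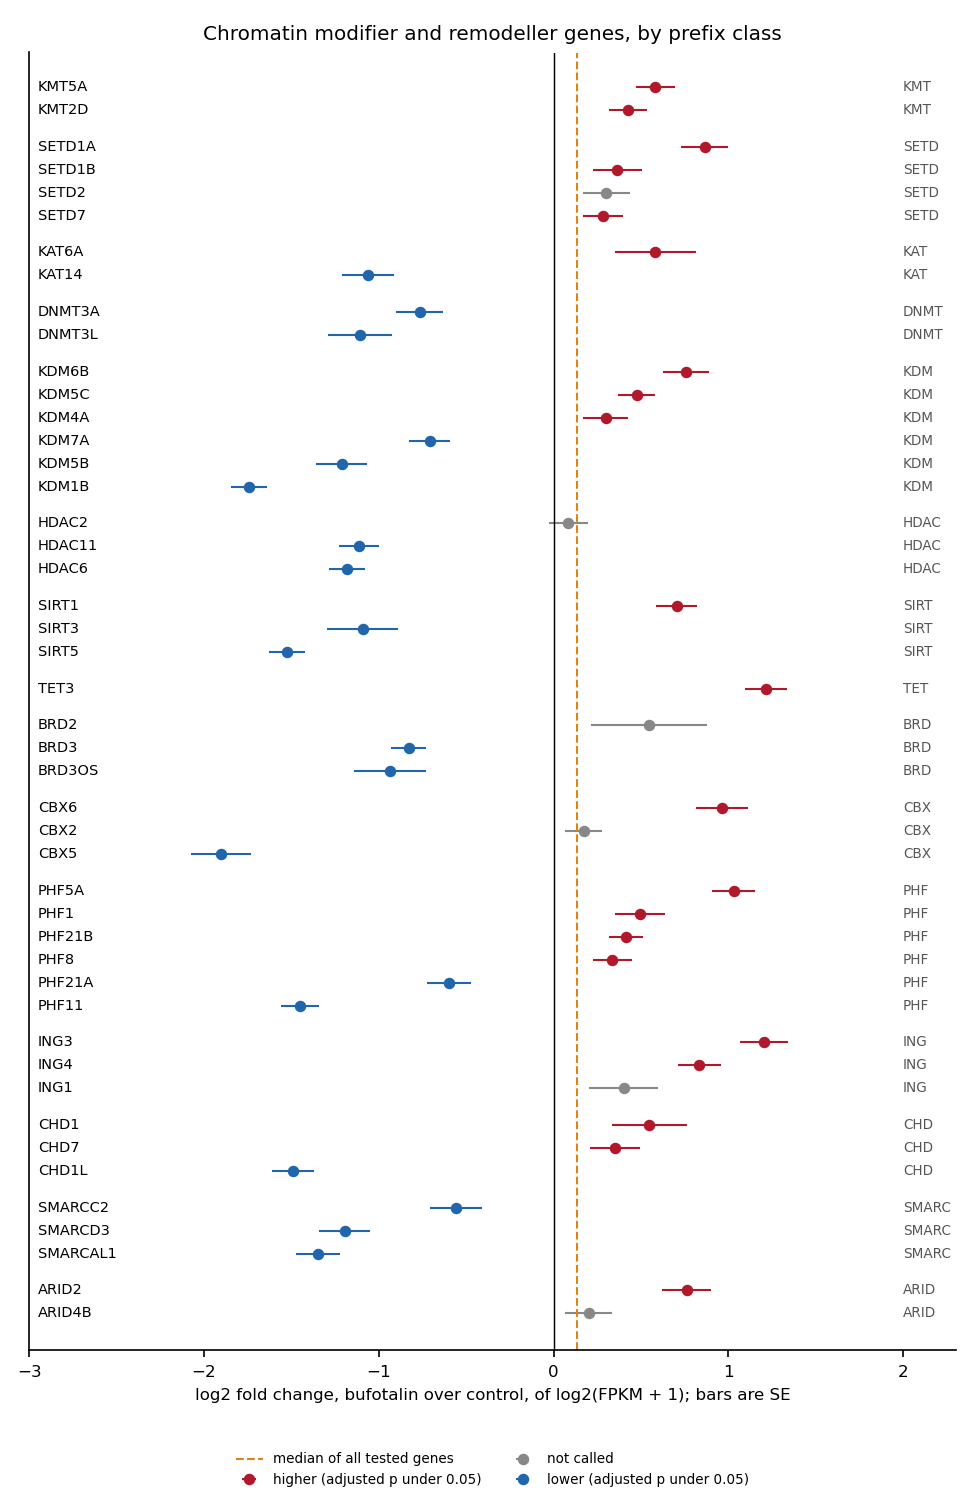
Log2 fold change of bufotalin over control on the log2(FPKM + 1) scale for tested members, by class, with bars of 1 SE (3 libraries a group). Points right of 0 are higher with bufotalin, red and blue points passed the test, and the dashed line is the median of all tested genes, 0.13. Every KMT, ING and SETD gene lies right of 0 and every SMARC and DNMT gene left of it.

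Several markers of other cells moved with the groups. Of 13 fibroblast markers 8 were in the table, and they added up to 23.9 to 29.8 FPKM in bufotalin libraries and 84.2 to 88.7 FPKM in control libraries, with all 7 tested genes lower and none at 0. The 2 endothelial markers present, CDH5 (called higher) and EGFL7 (called lower), summed to 8.46 to 10.6 FPKM with bufotalin and 32.2 to 33.7 FPKM in controls. The 2 leukocyte markers, CSF1R and ITGAM, summed to 3.97 to 6.09 FPKM with bufotalin and 3.16 to 3.45 FPKM in controls, with ITGAM listed at 0 in each bufotalin library. DES and HBB, of muscle and red cells, summed to 0.392 to 0.633 FPKM with bufotalin and 2.06 to 15.2 FPKM in controls. DES was called lower and HBB was not called (adjusted p = 0.306). HBB had 0.537, 0.47 and 13.4 FPKM in controls, so the highest sum came from control replicate 3. Proliferation markers (4 of 5 in the table, all 4 called higher) summed to 382 to 443 FPKM with bufotalin and 280 to 321 FPKM in controls. Of 12 hepatocyte markers only TF was in the table, at 0.00312, 0.0402 and 0.00148 FPKM with bufotalin and listed at 0 in controls, so the other 11 markers gave no check of the labelled cell type and TF itself was at or near 0. Their part in the results on chromatin genes was not tested.

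The promoters of these genes are rich in CpG, the dinucleotide that DNMT enzymes methylate and TET enzymes act on. Of the 48 members, 36 had an entry in the RefSeq promoter table (GRCh38.p14). In the 250 bases upstream of the start the median was 23.5 CpG, with a range of 1 to 50, and over 15842 protein-coding promoters it was 17, with quartiles of 6 and 26. Members called higher had a median of 22 CpG (14 promoters) and members called lower 24 (16 promoters), so the medians lay close together. The pair with the largest falls and the pair with the largest rises on the log2(FPKM + 1) scale among matched members are shown here. Each is read 5′ to 3′ on the gene's strand, with CG in capitals and without bases inside the gene's bounds as the authors' table gives them. CBX5 is read from chr12:54280134-54280372 (minus strand) and holds 17 CpG in 239 bases. KDM1B is read from chr6:18155172-18155328 (plus strand) and holds 21 CpG in 157 bases. TET3 is read from chr2:73984660-73984909 (plus strand) with 37 CpG in 250 bases, and CBX6 from chr22:38872315-38872466 (minus strand) with 22 CpG in 152 bases.
CBX5: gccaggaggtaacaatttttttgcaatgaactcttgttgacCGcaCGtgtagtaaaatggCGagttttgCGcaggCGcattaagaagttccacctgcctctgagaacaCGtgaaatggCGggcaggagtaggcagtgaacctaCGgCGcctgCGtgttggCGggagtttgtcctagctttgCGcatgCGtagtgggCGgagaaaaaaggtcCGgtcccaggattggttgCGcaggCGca
KDM1B: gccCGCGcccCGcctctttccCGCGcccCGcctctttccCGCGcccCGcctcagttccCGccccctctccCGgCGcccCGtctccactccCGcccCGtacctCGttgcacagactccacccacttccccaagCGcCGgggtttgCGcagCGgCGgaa
TET3: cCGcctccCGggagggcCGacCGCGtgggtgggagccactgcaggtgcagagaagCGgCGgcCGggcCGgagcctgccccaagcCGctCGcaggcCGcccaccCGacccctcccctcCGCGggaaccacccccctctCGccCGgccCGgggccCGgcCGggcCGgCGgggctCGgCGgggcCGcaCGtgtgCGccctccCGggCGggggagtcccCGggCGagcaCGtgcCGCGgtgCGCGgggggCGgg
CBX6: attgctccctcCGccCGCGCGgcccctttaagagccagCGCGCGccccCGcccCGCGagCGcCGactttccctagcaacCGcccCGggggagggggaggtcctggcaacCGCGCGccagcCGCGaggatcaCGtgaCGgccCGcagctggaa
The first of these is the least CpG-dense, and it alone of the 4 holds a CCAAT box.

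The same 250 bases were searched for short motifs on both strands. The letters CCAAT were found in 16.7% of the members' promoters and 34.5% of all protein-coding promoters. The GC box GGGCGG was found in 72.2% and 56.0%. TGACGTCA, the cAMP response element, was found in none of the members' promoters and in 2.32% of all. A promoter can hold both CCAAT and the GC box, as that of CBX5 does. The GC box was found in 71.4% of promoters of members called higher and 68.8% of those called lower.

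In the table, histone methyltransferases with the KMT and SETD prefixes were called higher with bufotalin except SETD2, and none was called lower. The table held 2 of 8 KMT and 4 of 12 SETD protein-coding symbols of RefSeq. KMT2D, which methylates H3K4 at enhancers, stood at 19.3, 22.3 and 23.3 FPKM in bufotalin libraries, against 15.5, 16 and 15.9 FPKM in control libraries. All 3 bufotalin libraries lay above all 3 controls (log2 fold change 0.43, SE 0.11, adjusted p = 0.00479). KMT5A, the enzyme that places the first methyl group on H4K20, had 30.7, 30.8 and 32.4 FPKM with bufotalin and 22.9, 20.5 and 18.7 FPKM in controls. The groups were apart here too (log2 fold change 0.58, SE 0.11, adjusted p = 0.00083). The KMT genes together summed to 50.1 to 55.7 FPKM in bufotalin libraries and 34.6 to 38.4 FPKM in control libraries.

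SETD1A and SETD1B are the alternative catalytic subunits of the SET1 complexes, which trimethylate H3K4 at active promoters. SETD1A had the largest rise of the class, with 13.1, 10.5 and 12.6 FPKM in bufotalin libraries, against 6.74, 6.65 and 5.16 FPKM in control libraries (log2 fold change 0.87, SE 0.13, adjusted p = 0.000214). Its level in each bufotalin library was above the highest control by a wide margin. SETD1B had 6.59, 8.23 and 9.73 FPKM with bufotalin and 6.18, 6.47 and 5.57 FPKM in controls, and bufotalin replicate 1 lay just above the highest control (log2 fold change 0.36, SE 0.14, adjusted p = 0.0318). Its call was lost without bufotalin replicate 2 or 3, or without control replicate 1 or 3 (log2 fold change 0.24 to 0.49 over the libraries left out). SETD7, a monomethyltransferase of H3K4 and of non-histone proteins, was the most abundant of the 4 over all 6 libraries, with 24, 24.8 and 27.8 FPKM in bufotalin libraries, against 19.8, 19.5 and 23.2 FPKM in control libraries. It rose by a log2 fold change of 0.28 (SE 0.12, adjusted p = 0.0397), a call lost without bufotalin replicate 2 or 3 or control replicate 1 or 2. SETD2, which trimethylates H3K36, had 18.6, 22.4 and 26.5 FPKM with bufotalin and 18.3, 18 and 17.4 FPKM in controls and was not called (adjusted p = 0.0541), although its groups did not overlap. The class summed to 62.4 to 76.6 FPKM with bufotalin and 50.5 to 51.3 FPKM in controls.

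The acetyltransferase genes in the table went opposite ways. KAT6A, the catalytic subunit of a complex that acetylates histone H3, had 15.4, 15.5 and 26.3 FPKM in bufotalin libraries, against 13.5, 9.07 and 14 FPKM in control libraries (log2 fold change 0.58, SE 0.23, adjusted p = 0.036). Its value in bufotalin replicate 3 was far above the other libraries of that group, and without that library, or without control replicate 2, the call was lost. KAT14, a subunit of the ATAC acetyltransferase complex, had 1.99, 1.14 and 1.45 FPKM with bufotalin and 3.68, 4.39 and 4.65 FPKM in controls, with no overlap (log2 fold change -1.06, SE 0.15, adjusted p = 0.000104).

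Both DNA methyltransferase genes in the table fell, and TET3, the sole TET gene there, rose. Under quantile normalization the fall of DNMT3A was not called (-0.15, adjusted p = 0.302), while those of DNMT3L and TET3 kept their calls. DNMT3A, which sets new methyl groups on cytosine, had 2.13, 2.34 and 3.25 FPKM in bufotalin libraries, against 4.98, 5.01 and 5.07 FPKM in control libraries, and its controls agreed closely with one another (log2 fold change -0.77, SE 0.13, adjusted p = 0.000476). DNMT3L, a cofactor without catalytic activity that stimulates DNMT3A, was low throughout, with 0.164, 0.0228 and 0.425 FPKM with bufotalin and 1.87, 1.99 and 0.982 FPKM in controls (log2 fold change -1.11, SE 0.18, adjusted p = 0.000389). TET3 oxidises 5-methylcytosine in the first step of its removal and had 16.3, 18.6 and 20.6 FPKM in bufotalin libraries, against 7.43, 6.89 and 7.79 FPKM in control libraries. Every bufotalin library was above every control, and the rise was the largest of all members on the log2(FPKM + 1) scale (log2 fold change 1.22, SE 0.12, adjusted p = 1.43e-05). The DNMT pair summed to 2.29 to 3.68 FPKM with bufotalin and 6.05 to 7.0 FPKM in controls. DNMT1, DNMT3B, TET1 and TET2 were not analysed here.

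Among the 6 lysine demethylases 3 rose and 3 fell. KDM1B, a flavin-dependent demethylase of H3K4, had 3.18, 3.27 and 3.36 FPKM in bufotalin libraries, against 13.3, 12.7 and 13.9 FPKM in control libraries. Replicates lay close together in both groups, and the fall was the second largest among members on the log2(FPKM + 1) scale (log2 fold change -1.74, SE 0.10, adjusted p = 1.46e-06). KDM5B, a JmjC demethylase of trimethylated H3K4, had 12.1, 15.5 and 11.1 FPKM with bufotalin and 27.4, 31 and 34.6 FPKM in controls (log2 fold change -1.21, SE 0.15, adjusted p = 4.65e-05). KDM7A, which acts on dimethylated H3K9 and H3K27, had 4.01, 3.34 and 4.03 FPKM with bufotalin and 6.89, 6.3 and 7.29 FPKM in controls (log2 fold change -0.71, SE 0.12, adjusted p = 0.000297). The groups were apart at all 3 of these genes.

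The 3 demethylases that rose included the most abundant of the class. KDM5C, the X-linked relative of KDM5B, had 41.7, 44.1 and 41.7 FPKM in bufotalin libraries, against 29, 29 and 33 FPKM in control libraries (log2 fold change 0.47, SE 0.11, adjusted p = 0.00205). KDM6B, which removes methyl groups from H3K27, had 8.6, 7.94 and 9.91 FPKM with bufotalin and 5.63, 4.57 and 4.26 FPKM in controls, again with no overlap (log2 fold change 0.76, SE 0.13, adjusted p = 0.00042). KDM4A, a demethylase of H3K9 and H3K36, had 13.5, 12.4 and 13.2 FPKM with bufotalin and 8.84, 10.3 and 12.3 FPKM in controls. Its lowest bufotalin library lay only just above control replicate 3, its adjusted p was 0.0487 (log2 fold change 0.30), and the call was lost without any 1 of the bufotalin libraries or of control replicates 1 and 2. The KDM genes summed to 83.1 to 86.6 FPKM with bufotalin and 91.2 to 105 FPKM in controls.

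HDAC6 and HDAC11 were lower and HDAC2 did not pass the test. HDAC6, a mostly cytoplasmic deacetylase of tubulin, had 8.06, 8.08 and 7.46 FPKM in bufotalin libraries, against 18.8, 18.5 and 20.03 FPKM in control libraries (log2 fold change -1.18, SE 0.10, adjusted p = 7.64e-06). The replicates of each group lay within a narrow band, with the control libraries above the bufotalin libraries. HDAC11, the sole class IV deacetylase, had 0.342, 0.302 and 0.298 FPKM with bufotalin and 1.73, 1.57 and 2.27 FPKM in controls (log2 fold change -1.11, SE 0.11, adjusted p = 1.88e-05). HDAC2, a class I nuclear deacetylase and the most abundant of the 3, had 24.6, 26.4 and 27 FPKM with bufotalin and 22.3, 26.7 and 24.5 FPKM in controls (log2 fold change 0.08, SE 0.11, adjusted p = 0.47), and its groups overlapped.

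Of the sirtuins, NAD-dependent deacylases, SIRT1 was higher and SIRT3 and SIRT5 were lower. SIRT1, which is mainly nuclear, had 46, 47.5 and 49.6 FPKM in bufotalin libraries, against 33, 26.6 and 27.4 FPKM in control libraries and was among the most abundant members (log2 fold change 0.70, SE 0.12, adjusted p = 0.000324). SIRT5, a mitochondrial desuccinylase, had 0.812, 0.941 and 0.883 FPKM with bufotalin and 4.19, 4.6 and 4.45 FPKM in controls (log2 fold change -1.53, SE 0.10, adjusted p = 2.62e-06). SIRT3, the main mitochondrial deacetylase, had 1.42, 1.86 and 1.34 FPKM with bufotalin and 4.2, 3.12 and 6.36 FPKM in controls (log2 fold change -1.09, SE 0.20, adjusted p = 0.000787). Control replicate 3 was the highest for SIRT3 and replicate 2 the lowest, and even that was above each bufotalin library. The call of SIRT3 was lost under quantile normalization (-0.43, adjusted p = 0.0919), and that of SIRT5 was kept. SIRT3 and SIRT5 together summed to 2.23 to 2.81 FPKM with bufotalin and 7.72 to 10.8 FPKM in controls.

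**Figure D2:**
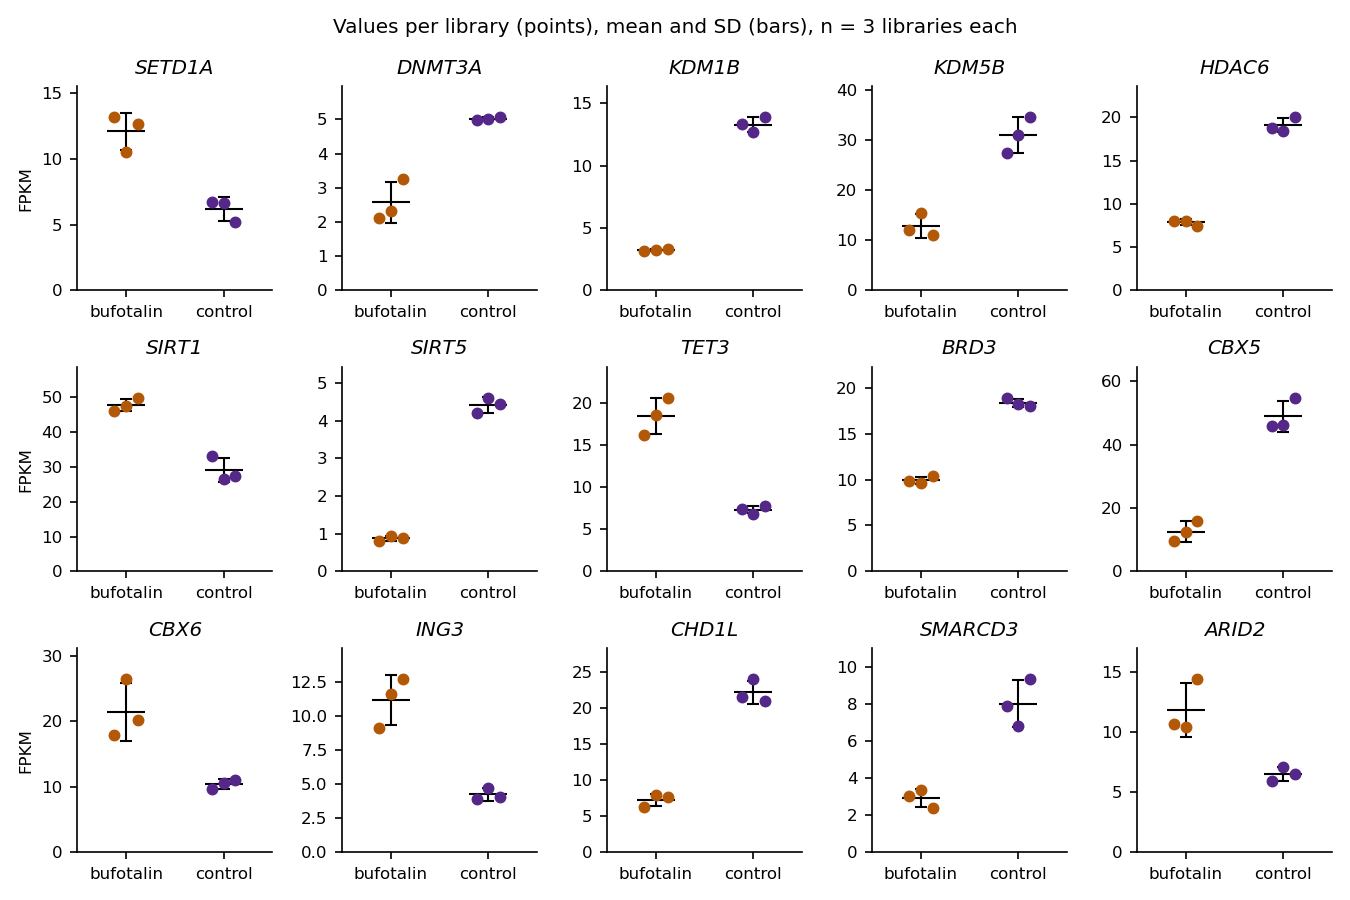
FPKM of 15 members in each library (points), bufotalin left and control right, with the mean and SD as bars (n = 3 each) and axes that start at 0. Groups do not overlap in any panel, as for KDM1B, where bufotalin libraries sit between 3.18 and 3.36 FPKM and control libraries between 12.7 and 13.9 FPKM.

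BET proteins bind acetylated histones through paired bromodomains. BRD3, a member of that family, had 9.79, 9.58 and 10.3 FPKM with bufotalin and 18.9, 18.2 and 18 FPKM in controls, with replicates close together in each group (log2 fold change -0.83, SE 0.10, adjusted p = 4.96e-05). BRD2, of the same family, had the highest mean of all members in bufotalin libraries, yet its values, 32.4, 73.9 and 42.3 FPKM with bufotalin and 26.2, 26.8 and 45.2 FPKM in controls, overlapped and it was not called (adjusted p = 0.149). BRD3OS, an RNA named for the strand opposite BRD3, had 0.327, 0.303 and 0.526 FPKM with bufotalin and 1.1, 1.32 and 2.78 FPKM in controls (log2 fold change -0.93, SE 0.21, adjusted p = 0.0023). It shares 4362 bases with BRD3 in the authors' bounds, and since it was not given whether reads were counted by strand, the 2 cannot be told apart.

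Chromobox genes included the largest fall of all members on the log2(FPKM + 1) scale. CBX5 (HP1α), which binds methylated H3K9 in heterochromatin and whose promoter is shown above, had 9.49, 12.3 and 16 FPKM in bufotalin libraries, against 46.1, 46.1 and 54.7 FPKM in control libraries. It averaged 12.6 ± 3.24 FPKM with bufotalin and 49 ± 4.96 FPKM in controls (SD, n = 3 each), with a log2 fold change of -1.90 (SE 0.17, adjusted p = 9.83e-06). It had the highest mean of all members in controls and rank 22 of 48 in bufotalin libraries. CBX6, a chromobox of Polycomb repressive complex 1, rose, with 17.9, 26.4 and 20.1 FPKM with bufotalin and 9.63, 10.5 and 11.1 FPKM in controls (log2 fold change 0.96, SE 0.15, adjusted p = 0.000198). CBX2, of the same complex, had 19.7, 19.8 and 20.1 FPKM with bufotalin and 16.2, 17.3 and 19.2 FPKM in controls and was not called (adjusted p = 0.145), though its groups did not overlap. The class summed to 47.1 to 58.5 FPKM with bufotalin and 71.9 to 84.9 FPKM in controls.

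Of the 6 PHD finger genes with the PHF prefix 4 rose and 2 fell. PHF5A rose most, with 47.8, 47.7 and 40.9 FPKM in bufotalin libraries, against 21.9, 24.2 and 19.3 FPKM in control libraries (log2 fold change 1.03, SE 0.12, adjusted p = 4.44e-05). It is a subunit of the SF3b splicing complex, so its prefix places it here but its best known role is not on chromatin. PHF11 had 2.19, 1.89 and 1.88 FPKM with bufotalin and 7.18, 7.47 and 6.79 FPKM in controls (log2 fold change -1.45, SE 0.11, adjusted p = 3.96e-06). PHF21A, which binds unmethylated H3K4 in the LSD1 corepressor complex, had 3.43, 3.64 and 4.27 FPKM with bufotalin and 7.21, 5.74 and 5.8 FPKM in controls (log2 fold change -0.60, SE 0.13, adjusted p = 0.00154). The groups of these 3 genes did not overlap. PHF1, an accessory subunit of Polycomb repressive complex 2, rose by a log2 fold change of 0.49 (SE 0.14, adjusted p = 0.00876). PHF8, a demethylase of H3K9 and H4K20, rose by 0.34 (SE 0.11, adjusted p = 0.0174), a call lost without bufotalin replicate 2 or control replicate 1 or 2. PHF21B was low, with 1.17, 1.46 and 1.34 FPKM with bufotalin and 0.719, 0.772 and 0.737 FPKM in controls, and rose by 0.41 (SE 0.10, adjusted p = 0.00301).

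ING proteins bind trimethylated H3K4 and bring acetyltransferase or deacetylase complexes to it. ING3, of the NuA4 acetyltransferase complex, had 9.1, 11.6 and 12.7 FPKM in bufotalin libraries, against 3.92, 4.75 and 4.05 FPKM in control libraries (log2 fold change 1.203, SE 0.14, adjusted p = 3.49e-05). ING4, of the HBO1 acetyltransferase complex, had 10.4, 9.91 and 8.27 FPKM with bufotalin and 5.4, 4.88 and 4.39 FPKM in controls (log2 fold change 0.83, SE 0.12, adjusted p = 0.000163). Both genes had every bufotalin library above every control. ING1, of the SIN3 deacetylase complex, had 7.56, 8.76 and 7.98 FPKM with bufotalin and 5.91, 8.28 and 4.08 FPKM in controls. It was not called (adjusted p = 0.0788), with control replicate 2 inside the bufotalin range, and it was called higher without that library. The class summed to 27 to 30.3 FPKM with bufotalin and 12.5 to 17.9 FPKM in controls.

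Remodeller genes of the SMARC class in the table, 3 of 13 in RefSeq, were all lower. SMARCAL1, an annealing helicase at stalled replication forks that is not a SWI/SNF subunit, had 2.22, 1.76 and 1.97 FPKM in bufotalin libraries, against 5.66, 7.41 and 6.77 FPKM in control libraries (log2 fold change -1.35, SE 0.13, adjusted p = 1.19e-05). SMARCD3, a SWI/SNF subunit known for its role in heart and muscle, had 3.05, 3.39 and 2.4 FPKM with bufotalin and 7.91, 6.86 and 9.37 FPKM in controls (log2 fold change -1.20, SE 0.14, adjusted p = 4.79e-05). SMARCC2, a core scaffold subunit of SWI/SNF, was the most abundant, with 12.3, 12.2 and 16 FPKM with bufotalin and 23.2, 20.8 and 17.2 FPKM in controls (log2 fold change -0.56, SE 0.15, adjusted p = 0.00532). Its bufotalin replicate 3 lay close to control replicate 3. SMARCC2 shares 1138 bases with MYL6, which rose by a log2 fold change of 0.56 (adjusted p = 0.00964), so reads in the shared bases cannot be told apart. The class summed to 17.4 to 20.4 FPKM with bufotalin and 33.3 to 36.7 FPKM in controls.

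CHD and ARID genes moved in both directions or not at all. CHD1L, a remodeller activated by poly(ADP-ribose), had 6.25, 7.92 and 7.64 FPKM in bufotalin libraries, against 21.6, 24 and 20.9 FPKM in control libraries (log2 fold change -1.49, SE 0.12, adjusted p = 5.46e-06). CHD1, which binds trimethylated H3K4 at active genes, was far more abundant, with 39.7, 33 and 53.4 FPKM with bufotalin and 33.3, 31 and 20.9 FPKM in controls. It rose by a log2 fold change of 0.55 (SE 0.21, adjusted p = 0.035). The call was lost without bufotalin replicate 1 or 3 or control replicate 3, and bufotalin replicate 2 lay just under control replicate 1. CHD7, the gene mutated in CHARGE syndrome, had 9.71, 10.3 and 14 FPKM with bufotalin and 9.37, 8.39 and 8.06 FPKM in controls, and rose by a log2 fold change of 0.35 (SE 0.14, adjusted p = 0.0398). That call was lost without bufotalin replicate 3 or control replicate 2 or 3. ARID2, a subunit of the PBAF form of SWI/SNF, had 10.7, 10.5 and 14.4 FPKM with bufotalin and 5.95, 7.08 and 6.53 FPKM in controls with no overlap (log2 fold change 0.76, SE 0.14, adjusted p = 0.000601). ARID4B, of the SIN3 complex, had 13.7, 14.8 and 12.1 FPKM with bufotalin and 11.2, 13.7 and 10.2 FPKM in controls and was not called (adjusted p = 0.171). ARID3C was too low to be tested, with 0.479, 0.647 and 0.507 FPKM with bufotalin and 0.269, 0.117 and 0.0353 FPKM in controls.

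By role, writers had 6 members higher, 3 lower and 1 not called, with a median log2 fold change of 0.33. Erasers had 5 higher, 7 lower and 1 not called, with a median of -0.71. Readers and adaptors had 8 higher, 5 lower and 3 not called (median 0.41), and remodellers 3 higher, 4 lower and 1 not called (median -0.18). Over all tested genes the median was 0.13. Of all tested genes, 44.3% were called higher and 48.8% lower. Under quantile normalization the median of erasers was -0.25, with the falls of KDM7A and SIRT3 no longer called, and writers kept 5 of 6 rises and 2 of 3 falls. Roles followed the prefix alone. PHF8, a demethylase, thus counted as a reader, as did BRD3OS and the splicing subunit PHF5A. The mostly cytoplasmic HDAC6 and the mitochondrial SIRT3 and SIRT5 counted as erasers, and DNMT3L, without catalytic activity, as a writer. The difference between roles was not tested, since members are not replicates.

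Of 14 genes of H3K4 methylation 7 were in the table, the most for any histone mark listed, and all 7 were called, as were 93.2% of all tested genes. The 4 methyltransferases KMT2D, SETD1A, SETD1B and SETD7 and the demethylase KDM5C were higher, and the demethylases KDM1B and KDM5B were lower. The calls of SETD1B and SETD7 were lost with some single libraries left out, as given above, and that of SETD7 also under quantile normalization. The 3 subunits of the SET1 and related complexes found in the table were also higher. CXXC1, which binds unmethylated CpG and recruits SET1, had 20.5, 24.8 and 22.8 FPKM in bufotalin libraries, against 9.36, 7.8 and 8.61 FPKM in control libraries (log2 fold change 1.30, SE 0.12, adjusted p = 9.96e-06). RBBP5, a core subunit, and WDR82, which tethers SET1 to RNA polymerase II, rose by log2 fold changes of 0.31 (SE 0.11, adjusted p = 0.026) and 0.35 (SE 0.12, adjusted p = 0.0169). Without control replicate 1 or without control replicate 2, CXXC1 was the only one of the 3 still called, and WDR82 was not called under quantile normalization. Levels of the demethylases did not move as one, since KDM5C reached 42.5 ± 1.4 FPKM with bufotalin against 30.3 ± 2.3 FPKM in controls, while KDM5B had 12.9 ± 2.34 FPKM with bufotalin against 31 ± 3.61 FPKM in controls. The 7 genes summed to 120 to 130 FPKM in bufotalin libraries and 118 to 131 FPKM in control libraries, so the groups overlapped in the sum.

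**Figure D3:**
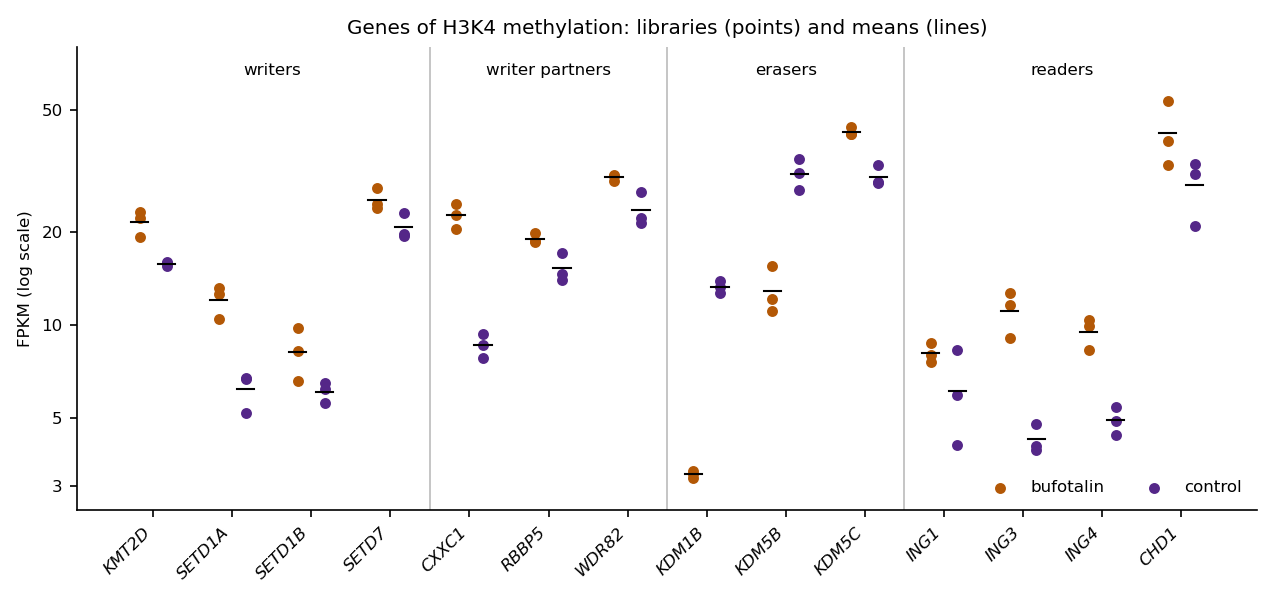
FPKM (log scale) of genes that write, erase or read H3K4 methylation in each library, bufotalin left of control for each gene, with lines at the group means (n = 3 each). All 4 writers, the 3 writer partners and the eraser KDM5C are higher with bufotalin. The erasers KDM1B and KDM5B are lower, and the groups of ING1 and CHD1 overlap.

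Other substrate groups were smaller. Of 18 genes of H3K9 methylation 5 were in the table, with KDM4A and PHF8 higher and CBX5, KDM7A and the methyltransferase gene EHMT2 lower. EHMT2 (G9a), which dimethylates H3K9, had 14.4, 10.2 and 11.2 FPKM in bufotalin libraries, against 19.1, 21.2 and 26.8 FPKM in control libraries (log2 fold change -0.85, SE 0.16, adjusted p = 0.000715). This group summed to 52.6 to 56.3 FPKM with bufotalin and 90.6 to 112 FPKM in controls. CBX5 alone made up 9.49 to 16.0 FPKM of the sum with bufotalin and 46.1 to 54.7 FPKM in controls. The sum joins genes that write, erase and bind the mark. Of 13 genes of H3K27 methylation 4 were present, with KDM6B, CBX6 and PHF1 higher and CBX2 not called. That group summed to 62.0 to 68.8 FPKM with bufotalin and 40.9 to 44.9 FPKM in controls. It leaves out KDM7A, which acts on H3K27 too but was listed under H3K9 alone. KDM7A was lower, a call lost under quantile normalization.

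For H3K36 methylation 4 of 9 genes were in the table. NSD2, a dimethyltransferase of H3K36, had 41.5, 35.7 and 42.6 FPKM in bufotalin libraries, against 25.7, 24 and 27 FPKM in control libraries (log2 fold change 0.62, SE 0.11, adjusted p = 0.000604). Its relative NSD1 had 10.7, 9.99 and 9.85 FPKM with bufotalin and 16.7, 18.1 and 15.8 FPKM in controls and was lower (log2 fold change -0.68, SE 0.11, adjusted p = 0.000238). KDM4A was higher and SETD2 was not called. For H4K20 methylation, KMT5A and the demethylase gene PHF8 were both higher. NuRD, a complex that joins histone deacetylation to remodelling, had 7 of 14 genes in the table, of which 4 rose, MTA3 fell and 2, HDAC2 and MTA2, were not called. Of those 4 rises, MBD3 alone was still called under quantile normalization. SWI/SNF had 5 of 21 genes in the table, of which ARID2 and DPF1 rose, SMARCC2 and SMARCD3 fell and 1 was not called.

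Chromatin genes outside the prefixes were set beside the members in 11 lists of 241 genes, of which 72 were in the table and 71 tested. Called higher were 41 (57.7%, against 44.3% of all tested genes) and called lower 22 (31.0%, against 48.8%), with a median log2 fold change of 0.35. Under quantile normalization 28 of these 41 rises and 16 of these 22 falls were still called, and called genes then made up 63.4% of the 71 and 76.2% of all tested genes. The counts of each list are small and are given as a description only. Values beside the names of these genes are log2 fold changes. Polycomb genes had 3 higher and 3 lower, among them RYBP at 0.95 and YAF2, its close relative, at -0.90. Under quantile normalization the falls of PHC1 and L3MBTL3 were not called, and that of L3MBTL3 changed sign (-0.63 as reported, 0.11 there), which left 3 higher and 1 lower. Methyltransferases outside the KMT and SETD prefixes had 3 higher and 4 lower, with SMYD3 at -1.40 and PRMT6, which methylates H3R2, at -1.14. Among JmjC genes JMJD4 fell by a log2 fold change of -1.18 and JMJD6 rose by 0.91, while JMJD7 fell (-0.70), a call lost under quantile normalization.

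Deacetylase corepressors had 8 of 10 tested genes higher and MTA3 lower (-1.29), with MBD3, a NuRD subunit, at 1.17. Under quantile normalization 5 genes of this list were called in place of 9, with 4 of the 8 rises lost. HP1 partners had 5 of 6 higher, with LRIF1 at 0.94, ATF7IP at 0.61 and the corepressor TRIM28 at 0.54, while TASOR, of the HUSH complex, fell (-0.72). The other rises, of LBR and SMCHD1, were lost under quantile normalization (adjusted p = 0.561 for LBR and 0.0815 for SMCHD1) and with some libraries left out, LBR without any single library other than bufotalin replicate 3 and SMCHD1 without bufotalin replicate 2 or 3 or control replicate 1 or 3. The groups of LBR overlapped. CBX5, the HP1 gene among the members, was lower in the same libraries. Acetyltransferase genes had 5 higher and 2 lower of 9, with CREBBP at 0.54, KANSL3, of the NSL complex, at -1.02 and SUPT20H, of SAGA, at -0.91.

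In the list on DNA methylation and its removal, 3 of 9 were higher and 4 lower. IDH2, the mitochondrial isocitrate dehydrogenase that makes 2-oxoglutarate, the cosubstrate of TET and JmjC enzymes, had 1.75, 1.36 and 1.5 FPKM in bufotalin libraries, against 21, 18.8 and 19.3 FPKM in control libraries (log2 fold change -3.03, SE 0.11, adjusted p = 2.21e-07). IDH1, its cytosolic counterpart, had 27.1, 28 and 27 FPKM with bufotalin and 76.2, 87.8 and 101 FPKM in controls (log2 fold change -1.65, SE 0.12, adjusted p = 3.94e-06). The groups were far apart at both genes. TDG, the glycosylase that excises the products of TET enzymes, rose by a log2 fold change of 0.57 (SE 0.11, adjusted p = 0.00089). Under quantile normalization 2 of the 3 rises and 3 of the 4 falls of this list were still called, those of TDG, IDH1 and IDH2 among them.

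Remodeller and chaperone lists gave mixed counts. SWI/SNF partners outside the prefixes had BCL7B (0.70) and DPF1 (0.59) higher and BICRAL (-0.83) and BCL11A (-0.58) lower of 5. Both falls were lost under quantile normalization, with BICRAL at -0.20 (adjusted p = 0.128) and BCL11A at 0.16 (adjusted p = 0.208), so that BCL11A changed sign. INO80, ISWI and related genes had 4 of 5 higher, with NFRKB at 0.56 and BPTF at 0.52, and MCRS1 lower (-0.61). Without bufotalin replicate 3, 2 of these 5 were called. Histone chaperones had 4 of 7 higher, ANP32E (0.45) among them, and CABIN1 (-1.19) and CHAF1B (-0.83) lower. Under quantile normalization 2 of the chaperones were called in place of 6, and all 4 rises were lost.

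Levels of the members spanned a wide range on the per-length FPKM scale. In bufotalin libraries the mean level ran from 0.204 FPKM for DNMT3L to 49.6 FPKM for BRD2, with a median of 11.6 FPKM. In control libraries it ran from 0.141 FPKM for ARID3C to 49.0 FPKM for CBX5, with a median of 10.03 FPKM. The 4 highest means with bufotalin were those of BRD2 (49.6 ± 21.7 FPKM), SIRT1 (47.7 ± 1.85 FPKM), PHF5A (45.5 ± 3.997 FPKM) and KDM5C (42.5 ± 1.4 FPKM), and neighbours in this order overlapped. In controls CBX5 (49 ± 4.96 FPKM) stood above BRD2 (32.7 ± 10.8 FPKM), KDM5B (31 ± 3.61 FPKM) and KDM5C (30.3 ± 2.3 FPKM). Its lowest control library was above the highest of these, and the other 3 overlapped one another.

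**Figure D4:**
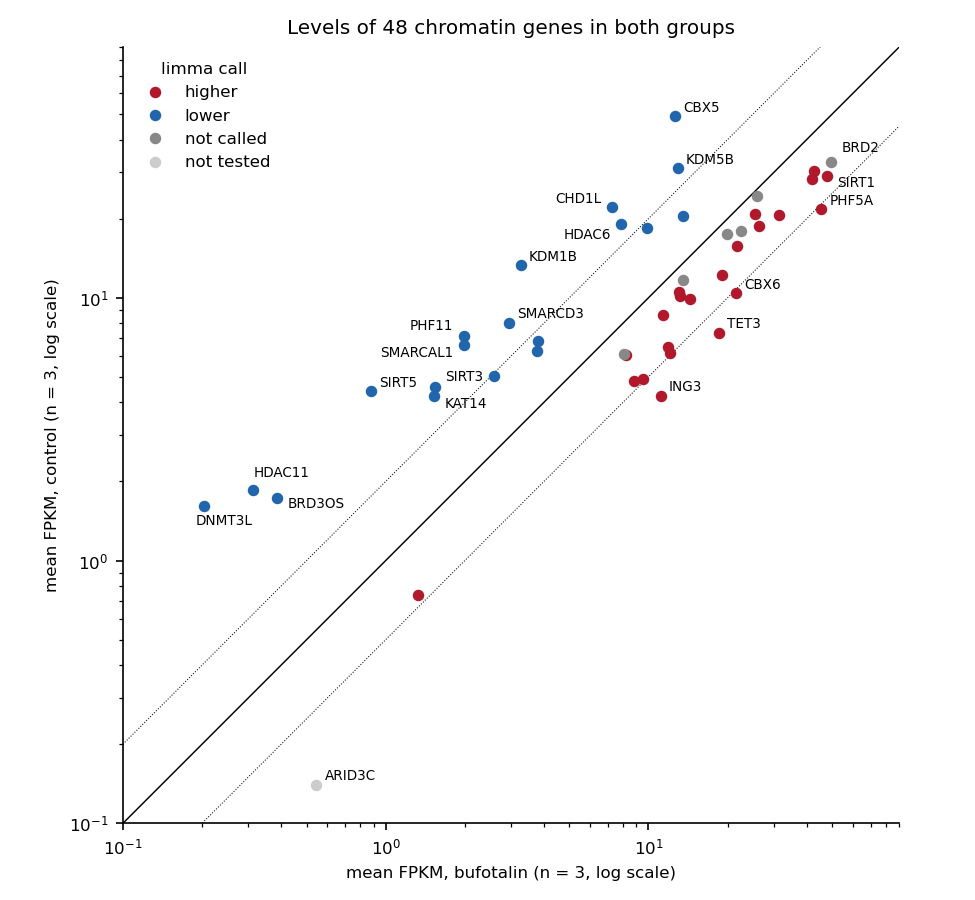
Mean FPKM of the 48 members with bufotalin (horizontal, log scale, n = 3) and in controls (vertical, log scale, n = 3), with a solid line of equal levels and dotted lines at 2-fold. CBX5 is the highest gene in controls and lies far above the line. Most members under 5 FPKM with bufotalin are the blue ones that fell, but a low level there is partly the fall itself. Members under 5 FPKM in controls went both ways, as SIRT5 (lower) and ING3 (higher) did.

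Scaling mattered for the less abundant members that fell. Under quantile normalization 5 of the 19 falls were no longer called, all of genes with a mean of 1.06 to 5.31 FPKM. Called genes also fell from 93.2% to 76.2% of all tested genes under that normalization. DNMT3A had a log2 fold change of -0.15 there (adjusted p = 0.302), SIRT3 -0.43 (0.0919), KDM7A -0.25 (0.066), PHF21A -0.12 (0.45) and BRD3OS -0.24 (0.282). KAT14, HDAC11 and SIRT5 kept their calls with values that shrank to -0.39, -0.43 and -0.83 in that order. DNMT3L (-0.58), SMARCAL1 (-0.79), SMARCD3 (-0.75) and PHF11 (-0.92) also moved by over 1.5 times and stayed called. So did the rises of PHF21B (1.05), SETD1B (0.71), CHD7 (0.54) and KDM6B (1.14), which grew, and of KDM5C (0.27), which shrank. CBX5 (-2.00), KDM1B (-1.43), CHD1L (-1.41) and HDAC6 (-1.10) changed little. The same scaling ended the rises of SETD7 and CHD1 and made ING1 pass. Over all 13 alternatives 29 members (61.7%, against 67.8% of all tested genes) were called in the same direction each time, 15 of them higher and 14 lower. All 19 falls kept their call with each library left out in turn, and 15 of the 22 rises did. Calls kept in each direction were not counted over all tested genes, of which 87.5% to 91.3% were called with a library left out.

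**Figure D5:**
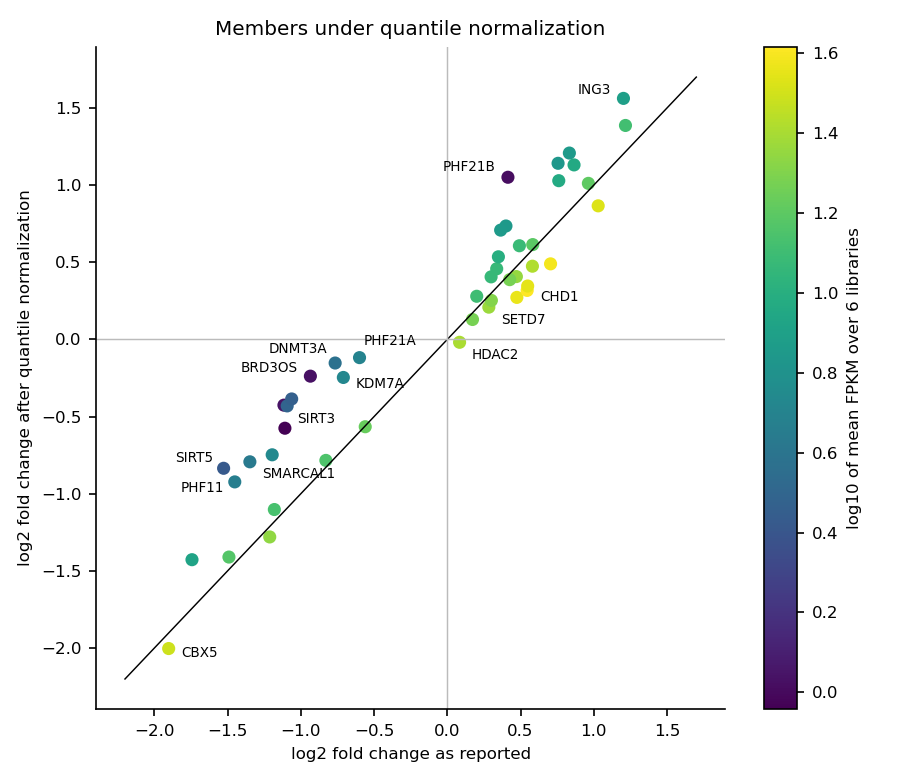
Log2 fold change of the 47 tested members as reported (horizontal) and after quantile normalization of the log2 values (vertical), coloured by log10 of the mean FPKM over 6 libraries, with a line of equal values. Dark points, which are low genes, lie above the line, so their falls are smaller and the rise of PHF21B larger, while CBX5 stays on it.

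Bufotalin replicate 3 was the highest of its group at 25 of 47 members (53.2%), and at 35.9% of all tested genes. Control replicate 3 was the highest of its group at 42.6% of members, against 47.4% of all tested genes. KAT6A, CHD1 and CHD7 were among the members with a high value in bufotalin replicate 3.

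Noncoding transcripts named after genes of these classes were few. The lncRNA table held 536 transcripts, 7 of them with such a name, and 6 of these were tested. Called were 3, all higher (73.3% of all 465 tested transcripts were called, 29.2% higher and 44.1% lower). Control means of these 3 were 0.0913 FPKM (CHD4-227), 0.0516 FPKM (KDM3A-213) and 0 (PHF14-209). They thus passed the minimum mean of 0.1 FPKM only through bufotalin libraries, and their shared direction follows in part from that minimum. CHD4-227, a transcript of the gene for the NuRD remodeller CHD4, had 3.75, 21.4 and 21.9 FPKM in bufotalin libraries, against 0.0211, 0.111 and 0.142 FPKM in control libraries. Its log2 fold change on the log2(FPKM + 0.1) scale was 6.06 (SE 0.80, adjusted p = 0.00121), and 3.63 with a pseudocount of 1. KDM3A-213, of an H3K9 demethylase gene, had 0.926, 0.341 and 1.35 FPKM with bufotalin and 0.0704, 0.016 and 0.0685 FPKM in controls. Its log2 fold change was 2.54 (SE 0.50, adjusted p = 0.0051) on the same scale and 0.80 with a pseudocount of 1.

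PHF14-209 had 0.607, 0.688 and 1.3 FPKM in bufotalin libraries and was listed at 0 in each control, so no fold is given (adjusted p = 0.000477). CHD4-243, SETD5-OT1 and KAT6A-216 were not called. SETD5-OT1 was listed at 0 in all libraries but control replicate 2, where it had 12.3 FPKM. KAT6A-216 reached 3.46 FPKM in bufotalin replicate 3 and at most 0.0525 FPKM in the others, and replicate 3 was the library in which the KAT6A gene was also highest, at 26.3 FPKM. KDM5B-212 was not tested, being listed at 0 in bufotalin libraries and at 0.0963, 0.195 and 0.0119 FPKM in controls. Gene-level values of CHD4, KDM3A, PHF14 and SETD5 were not analysed here.

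Some members share their start region or bases with a neighbour. KDM1B, whose promoter is shown above, starts 253 bases from TPMT, a thiopurine methyltransferase gene on the opposite strand. TPMT had 5.65, 6.34 and 5.76 FPKM in bufotalin libraries, against 11.3, 12.4 and 9.35 FPKM in control libraries, and it was lower as well (log2 fold change -0.79, SE 0.12, adjusted p = 0.000237). ING1 shares 868 bases with CARS2, which rose by a log2 fold change of 0.55 (adjusted p = 0.000822). PHF1 shares 12 bases with CUTA, which rose by 1.04 (adjusted p = 3.68e-05).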

How the data were processed

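Xenografts labelled Hep3B gave 3 bufotalin and 3 control total RNA libraries. Per the labels' protocols, TRIzol was used for extraction and a NEBNext Ultra RNA kit for the libraries. The authors deposited FPKM values per gene (mRNA) and per transcript (lncRNA). The submitters' processing notes name CASAVA 1.8, fastp, HISAT2 2.0.5, featureCounts 1.5.0-p3, DESeq2 1.20.0 and GRCh38. The sources used here do not say which tool made which values, how genes were selected, whether reads were counted by strand or what became of host reads. Depth was unknown, so no count test, interval or floor was used.

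limma 3.58.1 (R 4.3.3, trended and robust, two-sided) was fitted to log2(FPKM + 1) of genes averaging 0.5 FPKM or more, and to log2(FPKM + 0.1) of transcripts averaging 0.1 FPKM or more, and tested on simulated data. Adjusted p-values are over each whole table. Python 3.11.15, numpy 2.4.6, pandas 2.3.3 and matplotlib 3.10.9 were also used. An exact permutation test of 3 against 3 libraries cannot go below p = 0.1, so single genes were tested by limma only. Of the 4988 gene identifiers 4968 matched the gene reference by Ensembl ID. All 48 members are in the counts, and some genes are not reported here by name. Given per library were, in each class, up to 3 called genes with the largest absolute fold change and averaging 1 FPKM or more, the most abundant gene, and genes of substrate groups. From each companion list up to 3 called genes were named, and any others were chosen after their values were seen. The members and lists were chosen with earlier results of these data known. The small RNA libraries were not used here.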

Additional observations from a re-analysis of the deposited data

How the results depend on the processing

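Over 13 alternatives, of 611 pairs of a member and a setting, 565 kept direction and side of the threshold, 37 lost a call, 8 gained one and 1 reversed, HDAC2 under quantile normalization, with a log2 fold change of -0.018. The 41 calls became 35 under quantile normalization, 46 with libraries scaled to equal medians, 40 without trend and robust fitting and 37 with the replicate block, and 35 to 40 with each library left out. Higher calls were then 16 to 21 and lower calls 19 each time, and lower calls were 14 under quantile normalization. Of all tested genes, 93.2% were called as reported. In the order of settings above, that share became 76.2%, 97.4%, 93.8% and 92.6%, and 87.5% to 91.3% with each library left out. The members' counts moved with the whole table. The members' median log2 fold change was 0.22 to 0.32 over the libraries left out (0.22 without bufotalin replicate 3) and 0.47 with equal medians, which moved the median of all tested genes to 0.31. That median was 0.05 under quantile normalization, -0.27 when bufotalin replicate 3 was left out and -0.14 with no FPKM minimum. The cause was not tested. Deviations of same-numbered libraries correlated at -0.02, 0.03 and -0.05. No shared deviation was visible, but such values cannot settle whether samples were paired. The replicate block ended the calls of KDM4A, CHD7, CHD1 and SETD1B. ARID3C was called higher only with no FPKM minimum. Called lncRNA transcripts numbered 3 to 4 with each library left out. Without sequencing depth, low values such as those of DNMT3L and BRD3OS have no known counting error. DNMT3L, HDAC11 and BRD3OS averaged under 0.5 FPKM with bufotalin and were tested only through their control values.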
